A study of Homo sapiens with 6 samples.

Results

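The genes described here are 10 chemokine and cytokine genes of KHM-5M cells: CXCL8, CXCL1, CXCL2, CXCL3, IL6, IL11, IL1A, IL1B, LIF and CCL20. They are 10 of the 17687 genes measured and were found by their symbols. The list was chosen from results of these same 6 libraries, that is from expression values and their differences between control, SS and SS+NAC. All values of these genes below are therefore a description. Calls of these genes are printed too, but nothing is concluded from them.

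KHM-5M is an established line of anaplastic thyroid cancer with wild-type BRAF, grown in RPMI-1640 with fetal bovine serum. The SS cells received sodium selenite (SS), and the SS+NAC cells received SS together with N-acetylcysteine (NAC), a thiol antioxidant. The labels name the control cells only as a control group. The paper gives PBS as the control of other assays and names no vehicle for the sequenced cells. The study asked what SS does to the transcripts of these cells and which part of it NAC alters. Each group had 2 libraries of polyadenylated RNA, which held between 17645545 and 23810056 expected counts. The study describes its replicates as biological, but the labels do not say that they were separate cultures, so the p-values measure only the spread between these libraries. The titles of the control and SS libraries carry a number without a unit. The labels state no dose or exposure time for the sequenced cells, and there was no group with NAC alone.

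CXCL8, CXCL1, CXCL2 and CXCL3 are secreted CXC chemokines that draw neutrophils through the receptors CXCR1 and CXCR2. IL-6, IL-11 and LIF belong to the cytokine family that signals through the shared receptor chain gp130, whereas IL-1α and IL-1β act through IL1R1 and induce many of the other genes named here. Such genes are commonly switched on together by NF-κB, AP-1 and C/EBP factors, their transcripts are often short-lived through AU-rich elements, and thyroid cancer cells are a known source of CXCL8 and IL-6.

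The line was checked against cell type markers, given in TPM (a level adjusted for transcript length and sequencing depth). Of 6 epithelial markers, the keratins KRT8 (977 to 1398 TPM), KRT18 (731 to 1099) and KRT7 (47.2 to 68.1) were abundant, whereas EPCAM did not exceed 6.07, KRT19 did not exceed 2.19 and CDH1, which encodes E-cadherin, did not exceed 0.29 TPM. Together these 6 had 2136 and 2183 TPM in control, 2324 and 2571 in SS, and 2093 and 1762 in SS+NAC. Of 8 thyroid lineage markers, 6 were measured. The transcription factors PAX8 (104.0 to 133.8 TPM) and HHEX (25.9 to 29.8) were expressed, FOXE1 reached 1.59 TPM, and SLC5A5 (at most 0.69), thyroglobulin (TG, at most 0.30) and NKX2-1 (at most 0.20 TPM) were low. Of the leukocyte markers, 9 of 12 were measured, and 6 of these 9 were below 1 TPM in each library. Their summed level was 86.0 and 90.2 TPM in control, 86.7 and 74.2 in SS, and 104.2 and 114.6 in SS+NAC, with the lysosomal gene CD68 as the most abundant. PTPRC had at most 0.77 TPM, ITGAM and CSF3R at most 0.08 and CD3E at most 0.06, while CD14 reached 2.14 and LYZ 1.91 TPM. The 6 fibroblast markers together had 229 and 227 TPM in control, 189 and 175 in SS, and 284 and 266 in SS+NAC. Most of this was COL1A1 (167 to 273 TPM). LUM (4.17 to 8.80) and PDGFRB (3.42 to 5.74 TPM) were expressed in each library, and COL1A2, COL3A1 and DCN did not exceed 0.19 TPM. The 4 endothelial markers were below 1 TPM in each library. The part of these marker differences in the results was not tested. In bulk RNA, fewer cells that express a gene and less of its RNA in each cell cannot be told apart.

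The genes lie on 5 chromosomes of GRCh38, and 4 of them belong to the chemokine cluster of chromosome 4. In GENCODE release 29, CXCL8 spans chr4:73740506-73743716 and CXCL1 spans chr4:73869393-73871242 on the plus strand. CXCL3 at chr4:74036589-74038807 and CXCL2 at chr4:74097035-74099293 lie on the minus strand. IL1A (chr2:112773915-112784590) and IL1B (chr2:112829751-112836903) are neighbours on the minus strand of chromosome 2, where CCL20 also lies at chr2:227805739-227817564 on the plus strand. IL6 lies at chr7:22725884-22732002 on the plus strand, and IL11 (chr19:55364389-55370463) and LIF (chr22:30240447-30246851) lie on the minus strand.

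Promoters are shown as a description of sequence, and no link between their letters and the values was tested. Promoter windows of RefSeq (GRCh38.p14) were found for 9 of the 10 genes, all but LIF. Their starts can differ from those of the GENCODE spans above. The stretches of CCL20 and IL6 printed below lie inside these spans, and those of CXCL8, CXCL2 and CXCL3 partly. For the 5 chemokine genes and IL6, the 150 bases before the annotated start are printed 5′ to 3′, with capitals for matches to the NF-κB consensus or to the 9 letters GGAATTTCC, a motif that was added after the sequences had been seen and that overlaps the consensus.
CXCL8 (chr4:73740419-73740568, plus strand): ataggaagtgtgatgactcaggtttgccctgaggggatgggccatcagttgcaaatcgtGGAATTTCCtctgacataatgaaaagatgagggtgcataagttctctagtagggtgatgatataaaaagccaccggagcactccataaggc
CXCL1 (chr4:73869243-73869392, plus strand): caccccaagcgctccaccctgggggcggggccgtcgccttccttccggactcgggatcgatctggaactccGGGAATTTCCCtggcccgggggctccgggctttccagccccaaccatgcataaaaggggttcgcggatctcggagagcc
CXCL2 (chr4:74099196-74099345, minus strand): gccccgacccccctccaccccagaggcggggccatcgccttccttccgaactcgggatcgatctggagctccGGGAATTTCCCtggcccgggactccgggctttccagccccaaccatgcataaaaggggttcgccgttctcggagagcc
CXCL3 (chr4:74038690-74038839, minus strand): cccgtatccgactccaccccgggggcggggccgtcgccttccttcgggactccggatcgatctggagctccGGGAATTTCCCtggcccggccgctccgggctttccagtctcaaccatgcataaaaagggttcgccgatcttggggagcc
CCL20 (chr2:227813692-227813841, plus strand): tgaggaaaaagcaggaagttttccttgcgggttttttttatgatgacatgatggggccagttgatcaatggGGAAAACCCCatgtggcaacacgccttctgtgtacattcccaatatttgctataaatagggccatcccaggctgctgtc
IL6 (chr7:22727050-22727199, plus strand): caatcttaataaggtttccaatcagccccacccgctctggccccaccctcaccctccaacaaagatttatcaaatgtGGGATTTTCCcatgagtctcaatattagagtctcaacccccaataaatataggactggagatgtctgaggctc
The stretch of CXCL1 matched that of CXCL3 at 129 of 150 bases (86.0%) without gaps, and that of CXCL8 at 44 of 150 (29.3%). Shifted by 1 base, the stretch of CXCL2 matched that of CXCL1 at 100 of 149 bases (67.1%) and that of CXCL3 at 98 of 149 (65.8%). The NF-κB match began 79 bases before the start in CXCL1 and CXCL3, 78 in CXCL2, 73 in IL6 and, on the opposite strand, 79 in CCL20, and the 9 letters of CXCL8 began 91 bases before it. On either strand, the consensus was in the windows of 5 of the 9 genes (CXCL1, CXCL2, CXCL3, IL6 and CCL20) and in 5.91% of the 35116 windows of the reference. The 9 letters were in the windows of CXCL8, CXCL1, CXCL2 and CXCL3 and in 0.461% of all windows. Neither motif was in the windows of IL1A and IL1B. These genes were nevertheless higher in SS replicate 1 and SS+NAC replicate 2, as the CXC chemokine genes were. CCL20 had the consensus but was higher in SS replicate 2.

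The promoter of IL11, a gene without either NF-κB motif, is printed as well. Its capitals mark an AP-1 match (TGANTCA), which began 96 bases before the start.
IL11 (chr19:55370464-55370613, minus strand): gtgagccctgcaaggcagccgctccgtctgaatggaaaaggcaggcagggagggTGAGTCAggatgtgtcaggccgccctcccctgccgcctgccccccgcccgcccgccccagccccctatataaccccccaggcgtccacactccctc
The AP-1 letters were also in the windows of CXCL8, 137 bases before the start, and IL1A, and in 7.71% of all windows. C/EBP letters (TTNCNNAA) were in the windows of 4 of the 9 genes (CXCL2, IL6, IL1A and IL1B) and in 36.8% of all windows. The letters TATAAA of the TATA box were found in CXCL8, IL1A and CCL20 and in 11.5% of all windows. They began 31, 239 and 29 bases before the start in these genes. The letters TGACNNNGC of the antioxidant response element were found in IL1A and in 13.3% of all windows. The cyclic AMP response element (TGACGTCA, 1.85% of all windows) and the ATF4-bound element (TGATGNAA, 3.62%) were in none of the 9 windows. A match describes the letters only and does not show that a factor binds.

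In control cells CXCL1 had the highest level of the 10 genes, at 151 ± 31.4 TPM (mean ± SD, n = 2). LIF (27.8 ± 2.67), IL11 (23.1 ± 1.84), CXCL2 (20.6 ± 3.45) and CXCL8 (19.6 ± 7.04 TPM) followed. The libraries of IL11, CXCL2 and CXCL8 overlapped, whereas both of LIF lay above both of IL11. IL1B (8.34 ± 3.01), CXCL3 (7.17 ± 3.10), IL1A (5.03 ± 0.778) and IL6 (3.69 ± 0.332 TPM) were lower. CXCL3 overlapped both IL1B and IL1A, whereas both libraries of IL6 lay below both of IL1A. CCL20 was the lowest at 1.2 ± 0.0283 TPM. In SS+NAC cells the order differed: CXCL1 (476 ± 246), CXCL8 (177 ± 130) and CXCL2 (131 ± 53.8 TPM) came first, ahead of LIF (48.0 ± 9.66) and IL11 (29.4 ± 0.205 TPM). Summed over the 10 genes, the level was 302.4 and 232.8 TPM in control, 636 and 326 in SS, and 607 and 1296 in SS+NAC, and CXCL1 alone made up between 49.6% and 59.4% of it.

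CXCL8, which encodes interleukin-8, had the widest range of the 10 as a ratio of its highest to its lowest library. Its values in CPM (counts scaled by depth and TMM, used to compare 1 gene between libraries) were 19.3 and 11.8 in control, 72.3 and 33.1 in SS, and 65.6 and 197 in SS+NAC. Both SS libraries and both SS+NAC libraries lay above both control libraries, while SS replicate 1 lay above SS+NAC replicate 1, so the treated groups overlapped in CPM. In TPM they did not, with 75.6 and 31.6 in SS and 85.3 and 269 in SS+NAC. Of 14005 genes tested, 65.2% were likewise lower in SS than in SS+NAC without overlap in TPM, beside 38.1% in CPM. Against control, 14.3% were higher in SS without overlap in TPM, beside 36.3% in CPM. Orders in TPM below are to be read beside these shares. The mean was 3.38-fold that of control in SS and 8.43-fold in SS+NAC. In the fit, the log2 fold change was 1.78 (SE 0.508) for SS against control, 3.09 (SE 0.504) for SS+NAC against control and -1.31 (SE 0.445) for SS against SS+NAC. Single libraries weighed on these values: without SS replicate 1 the first was 1.10 and the last -1.99, without SS+NAC replicate 2 the second was 2.10 and the last -0.32, and without SS+NAC replicate 1 the second was 3.68.

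CXCL1 encodes the most abundant of the chemokines in these cells. It had 100.5 and 76.3 CPM in control, 256 and 141 in SS, and 176 and 354 in SS+NAC, again with both treated groups above control and overlapping each other. The log2 fold change was 1.17 (SE 0.317) for SS and 1.59 (SE 0.319) for SS+NAC against control. The first was 0.68 without SS replicate 1 and the second 0.99 without SS+NAC replicate 2. CXCL2, its close paralogue, had 13.8 and 11.1 CPM in control, 45.5 and 22.9 in SS, and 55.7 and 94.9 in SS+NAC. Here the 3 groups did not overlap, and SS+NAC was the highest. CXCL3, the least abundant of the 4 chemokines, gave the same order with 5.39 and 2.94 CPM in control, 10.6 and 6.49 in SS, and 11.1 and 20.8 in SS+NAC, although SS replicate 1 and SS+NAC replicate 1 were close. In TPM the SS libraries of CXCL3 (15.8 and 8.80) overlapped control (9.36 and 4.97). The log2 fold changes against control were 1.47 (SE 0.328) and 2.60 (SE 0.319) for CXCL2 in SS and SS+NAC, and 1.07 (SE 0.368) and 1.96 (SE 0.347) for CXCL3. Without SS replicate 1 the values in SS were 0.884 for CXCL2 and 0.665 for CXCL3. That of CXCL3 in SS was 0.694 without control replicate 2.

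The paralogues share sequence, so that reads can match more than 1 of them. Of the 50-base words in GENCODE transcripts, the length of the reads, 5.73% of those of CXCL1, 9.24% of CXCL2 and 5.26% of CXCL3 also occurred in another gene, in each case within this trio, and none of CXCL8 did. RSEM divides such reads among the genes, so the separate values of the trio are uncertain. Only identical words were counted, so these shares need not cover all reads that match more than 1 of the genes. For IL6, 18.8% of the words were shared with an overlapping transcript, AC073072.1, and for LIF 4.28% with AC004264.1 and LIF-AS1. Reads of overlapping genes on opposite strands cannot be told apart unless strand was used in counting, which is not given in the sources used here.

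IL6, a cytokine of fever and the acute phase response, had 2.39 and 2.67 CPM in control, 14.4 and 5.12 in SS, and 7.45 and 22.5 in SS+NAC. Each treated library lay above both control libraries, but the higher replicate was 2.82-fold the lower in SS and 3.01-fold in SS+NAC. The log2 fold change was 1.95 (SE 0.605) for SS and 2.56 (SE 0.581) for SS+NAC against control. Without the higher replicate of the treated group these were 1.01 and 1.55. LIF, leukemia inhibitory factor, had 61.1 and 54.3 CPM in control, 67.2 and 53.9 in SS, and 84.7 and 105.5 in SS+NAC. SS overlapped control and SS+NAC lay above both, with log2 fold changes against control of 0.07 (SE 0.128) in SS and 0.72 (SE 0.126) with NAC added. The value in SS turned to -0.097 without SS replicate 1. In TPM the mean of LIF was 24.4 in SS and 27.8 in control. IL11, a cytokine of stromal and epithelial repair, had 26.1 and 29.8 CPM in control, 38 and 35.8 in SS, and 35.2 and 33.2 in SS+NAC. Its treated libraries lay above control by a small margin, with log2 fold changes of 0.40 (SE 0.0900) in SS and 0.29 (SE 0.0900) in SS+NAC, and it was the only 1 of the 10 with both SS libraries above both SS+NAC libraries in CPM. In TPM this order turned round: IL11 had 27.1 and 23.2 TPM in SS, which overlapped control (21.8 and 24.4), and 29.2 and 29.5 in SS+NAC. Most tested genes (65.2%) were lower in SS than in SS+NAC without overlap in TPM.

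IL1A, whose product is active without cleavage and is released from damaged cells, had 8.28 and 6.79 CPM in control, 13.5 and 8.63 in SS, and 17.9 and 29.3 in SS+NAC. The groups did not overlap in CPM, and the larger step was that to SS+NAC, with a log2 fold change of 1.65 (SE 0.253) against control, compared with 0.57 (SE 0.269) in SS. The value in SS was 0.203 without SS replicate 1 and 0.848 without SS replicate 2. In TPM, SS (7.79 and 4.53) overlapped control (5.58 and 4.48). IL1B, whose product needs cleavage by caspase-1, had 7.84 and 4.75 CPM in control, 15.0 and 9.59 in SS, and 10.0 and 15.9 in SS+NAC. Both treated groups lay above control in CPM and nearly coincided, although in TPM SS (17.2 and 9.97) overlapped control (10.5 and 6.21), with log2 fold changes of 0.99 (SE 0.290) and 1.06 (SE 0.287). The first was 0.626 without SS replicate 1 and the second 0.694 without SS+NAC replicate 2. CCL20, the ligand of CCR6 on lymphocytes and dendritic cells, rested on 9 and 11 counts in control, 17 and 21 in SS, and 10 and 33 in SS+NAC. Its SS+NAC libraries lay on both sides of control at 0.414 and 1.37 CPM, and without SS+NAC replicate 2 its log2 fold change against control turned from 0.83 (SE 0.543) to -0.26, and without SS+NAC replicate 1 it was 1.45.

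**Figure D1:**
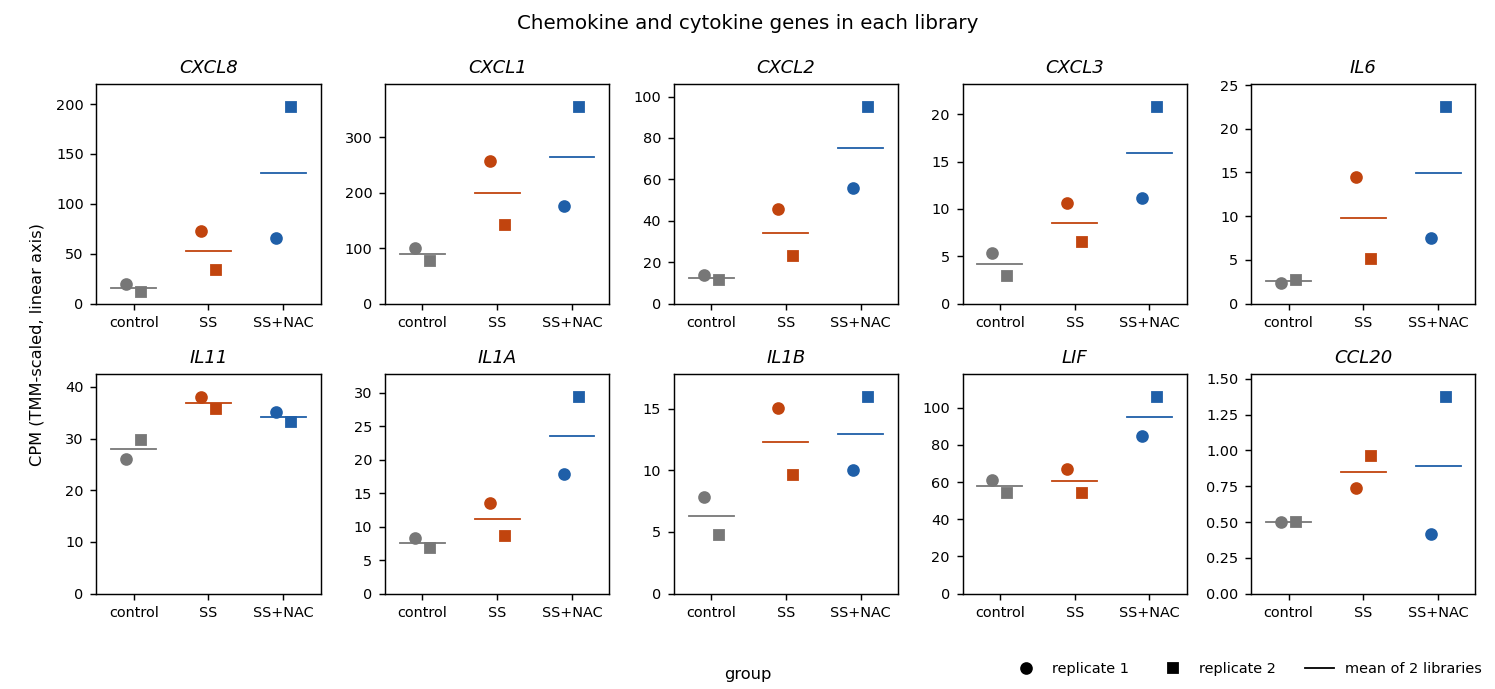
Level of each of the 10 genes in CPM (linear axis from 0) in control, SS and SS+NAC; circles are replicate 1, squares replicate 2 and lines the mean of 2 libraries. CXCL8, CXCL1, CXCL2, CXCL3 and IL6 are lowest in both control libraries, and SS+NAC replicate 2 is the highest of the 6 libraries for these 5 genes.

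The replicates differed more for these genes than for most. The median fold between replicates over the 10 genes was 1.23 in control, 1.60 in SS and 1.78 in SS+NAC, whereas over all tested genes it was 1.07, 1.09 and 1.11. The genes also leaned the same way: 9 of 10 were higher in SS replicate 1 than in SS replicate 2, and 9 of 10 were higher in SS+NAC replicate 2 than in SS+NAC replicate 1. The exceptions were CCL20 in SS and IL11 in SS+NAC. In control, 8 of 10 were higher in replicate 1, all but IL6 and IL11. In the fit, biological variation between replicates, as a coefficient, was 30.6% for CXCL8 and 32.8% for IL6 but 5.88% for IL11 and 8.86% for LIF, beside 6.74% for all genes together.

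A gene was called where the adjusted p of edgeR's quasi-likelihood test was at most 0.05 over 14005 genes. For SS against control, 7 of the 10 genes were called higher (CXCL8, CXCL1, CXCL2, CXCL3, IL6, IL11 and IL1B), beside 18.6% of all tested genes, and the libraries of 9 of 10 did not overlap in CPM, beside 36.3%. In TPM these were 5 of 10 (CXCL8, CXCL1, CXCL2, IL6 and CCL20), beside 14.3%. For SS+NAC against control, 6 were called higher (CXCL8, CXCL1, CXCL2, CXCL3, IL1A and LIF), beside 1.36%, and 9 of 10 did not overlap in CPM, beside 24.0%, and likewise 9 of 10 in TPM, beside 30.4%. For SS against SS+NAC, 5 were called lower (CXCL8, CXCL2, CXCL3, IL1A and LIF), beside 23.1%, and 4 of 10 were lower without overlap in CPM, beside 38.1%, and 6 of 10 in TPM, beside 65.2%. None was called in the other direction, in which the share of all genes was 21.4% for SS against control, 0.657% for SS+NAC against control and 19.6% for SS against SS+NAC. Nothing is read from these counts, since the genes were chosen with these comparisons known, and the comparisons share libraries: SS and SS+NAC were set against the same control libraries. The median log2 fold change of the 10 genes was 1.03, 1.62 and -0.63 in the 3 comparisons in the order given, beside 0.00, 0.00 and -0.03 over all tested genes.

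These counts depended on single libraries and on whether an offset for transcript length was used. Fewer of the 10 genes were called for SS against control without SS replicate 1, the library with the higher values, or either control library. For SS+NAC against control, fewer were called without either control library, and for SS against SS+NAC without SS replicate 2 or SS+NAC replicate 2. In each of these fits the calls over all genes were fewer as well. DESeq2's Wald test called 2 for SS against control (4727 of all 14005 tested genes), 5 for SS+NAC against control (321) and 2 for SS against SS+NAC (4972). Bonferroni adjustment called 0 in each comparison, beside 220, 40 and 191 of all tested genes in the same order. The size of a trend with transcript length over all genes is not given here. With an offset fitted to such a trend, calls over all genes fell from 5609 to 1292 for SS against control. They fell from 5985 to 2019 for SS against SS+NAC and stayed at 282 for SS+NAC against control. With this offset, edgeR called 0 of 10 for SS against control (4.19% of all genes called higher). It called 5 for SS+NAC against control (1.35%) and 4 for SS against SS+NAC (7.39% lower). For SS against control 6 of 10 had an unadjusted edgeR p under 0.05. Nothing is read from this count, since the share of all genes at that level is not given here. All 10 fold changes of SS against control stayed above 0 with the offset, with a median of 0.69.

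**Figure D2:**
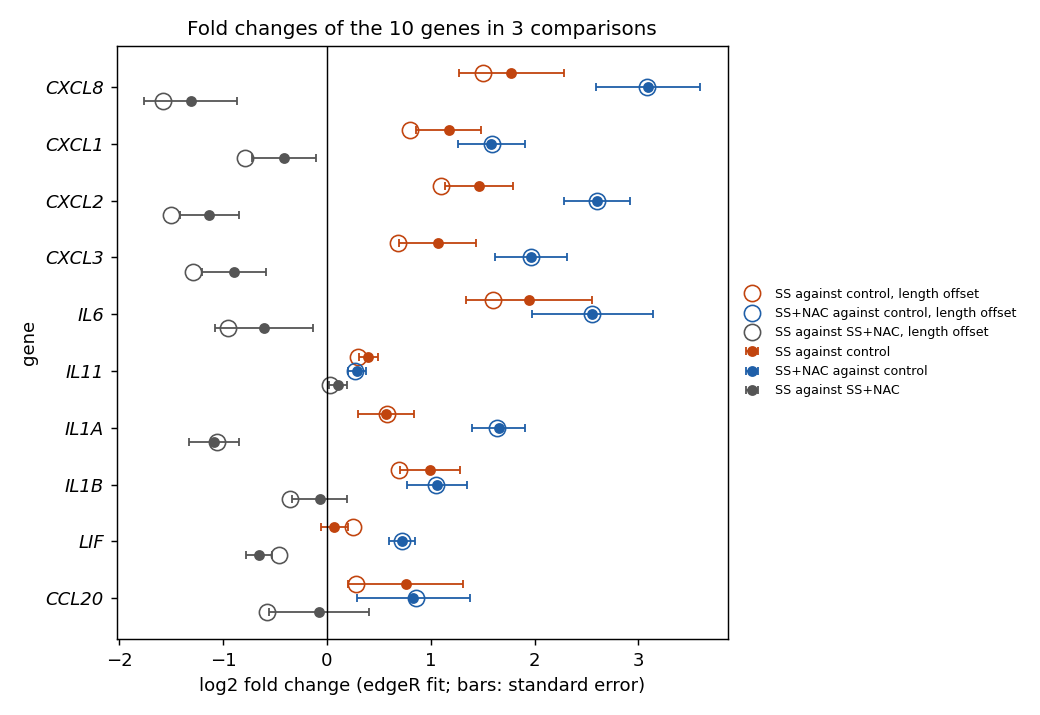
Log2 fold change of each gene in the 3 comparisons; filled points with bars are the estimate and its standard error, open circles the estimate with the length offset. CXCL8 reaches 3.09 for SS+NAC against control, and the open circles of SS against control lie nearer to 0 for 8 of the 10 genes, the exceptions being IL1A and LIF.

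The genes whose log2 CPM followed that of CXCL8 most closely over the 6 libraries were IER3 (Pearson r = 0.996), BTN3A3 (0.994), POPDC3 (0.994), AKR1C3 (0.993) and ABCC3 (0.992), among 12910 genes. IER3, an immediate early gene that NF-κB induces, had 108 and 90.4 CPM in control, 154 and 119 in SS, and 156 and 202 in SS+NAC. AKR1C3, an aldo-keto reductase, ranged from 4.07 CPM in control replicate 2 to 11.7 in SS+NAC replicate 2. For IL11 the closest were APOL1 (0.992), PXDC1 (0.990), FCMR (0.988), SLC26A6 (0.987) and GLMP (0.985). With 6 libraries in 3 groups these values only describe the order of the libraries.

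Receptors for these ligands, which are not among the 10, were examined next. Of 12 receptor and antagonist genes, 10 were measured and 8 were tested; CXCR1 and ACKR1 were not analysed here. The counts of this and the other lists stand beside the shares of all tested genes given above. These were 18.6% higher and 21.4% lower for SS against control, and 1.36% and 0.657% for SS+NAC against control. For SS against SS+NAC they were 19.6% and 23.1%. With the length offset, 4.19% were higher for SS against control, 1.35% higher for SS+NAC against control and 7.39% lower for SS against SS+NAC. The shares in the opposite directions with the offset are not given here. List counts in those directions therefore have no share beside them, and nothing is read from them. The lists were chosen with results of these libraries known. Counts of list genes with an unadjusted p under 0.05 lack the share of all genes at that level, so nothing is read from them. IL6ST, which encodes gp130, had the highest level, with 36.5 and 31.8 TPM in control, 14.2 and 11.1 in SS, and 32.3 and 44.3 in SS+NAC. It fell in SS against control, with a log2 fold change of -1.01 (SE 0.128, edgeR adjusted p = 0.000366), and was likewise lower in SS than in SS+NAC (-1.11, SE 0.128, edgeR adjusted p = 0.000269). LIFR, the partner of gp130 for LIF, had 4.14 and 3.72 TPM in control, 1.66 and 1.35 in SS, and 3.28 and 4.64 in SS+NAC. Its log2 fold change was -1.10 (SE 0.141, edgeR adjusted p = 0.000379) for SS against control and -1.05 (SE 0.140, edgeR adjusted p = 0.000464) for SS against SS+NAC. Both libraries of SS lay below the other 4 for both genes. The falls were smaller but still called with the length offset, at -0.54 for IL6ST and -0.56 for LIFR against control.

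The specific chains of IL-6 and IL-11 were low and not called in any comparison. IL6R had between 1.81 TPM (SS replicate 2) and 3.69 TPM (SS+NAC replicate 2), and IL11RA had between 2.35 and 3.34 TPM. The receptor chains of IL-1 were called for SS against SS+NAC only, without a test of whether that differs from the other comparisons. IL1R1 was lower in SS with a log2 fold change of -0.60 (SE 0.209, edgeR adjusted p = 0.0399) and IL1RAP with -0.49 (SE 0.135, edgeR adjusted p = 0.0147), and neither call held with the length offset (-0.32 for both, edgeR adjusted p = 0.311 and 0.125) or without SS replicate 2, and that of IL1R1 was also lost without SS+NAC replicate 2. The neutrophil receptor CXCR2 had between 0.44 and 0.50 TPM. CCR6, the receptor of CCL20, had 0.18 to 0.53 TPM and rose in SS against control (1.19, SE 0.406, edgeR adjusted p = 0.0389), a call that was lost without any 1 of the control or SS libraries and with the length offset, where the log2 fold change was not smaller (1.27, edgeR adjusted p = 0.0803). The decoy receptor IL1R2 did not exceed 0.59 TPM and the antagonist IL1RN did not exceed 0.09 TPM; neither was tested. None of the 8 receptor genes was called by edgeR or DESeq2 for SS+NAC against control, and 1 had an unadjusted edgeR p under 0.05.

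**Figure D3:**
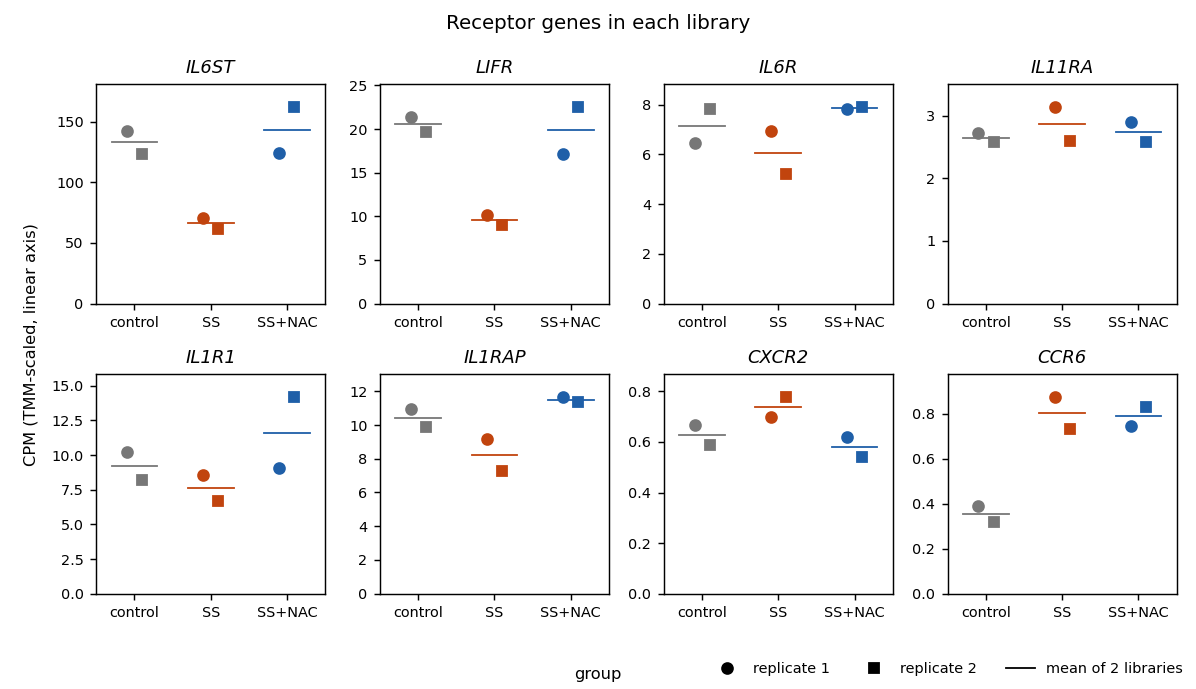
CPM (linear axis from 0) of the 8 tested receptor genes in each library; circles are replicate 1, squares replicate 2 and lines the mean of 2 libraries. IL6ST and LIFR lie lower in both SS libraries than in the other 4 libraries.

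Downstream of gp130, 3 of 18 signalling genes rose, 5 fell and 10 were not called for SS against control. The median log2 fold change was -0.04, and 0.059 with the length offset. The kinase JAK2 fell from 8.23 and 7.37 CPM in control to 4.40 and 3.33 in SS (-1.0, SE 0.169, edgeR adjusted p = 0.00129) and had 7.99 and 7.19 in SS+NAC. PTPN11, the phosphatase SHP2, fell as well (-0.63, SE 0.0748, edgeR adjusted p = 0.000264). Of the targets of this pathway, SOCS3, a feedback inhibitor, rose by 0.58 (SE 0.195, edgeR adjusted p = 0.0350) and the kinase PIM1 by 0.57 (SE 0.0928, edgeR adjusted p = 0.00107) on the log2 scale. The targets SOCS1, SOCS2, CISH and MCL1 were not called, with log2 fold changes of 0.72, 0.19, 0.52 and -0.15. The call of SOCS3 was lost without SS replicate 1 or either control library, and also with the length offset, where its log2 fold change was nearly as large (0.56, edgeR adjusted p = 0.111). With the offset 1 of the 18 rose and 2 fell. For SS against SS+NAC, 2 were higher and 7 lower (1 and 1 with the offset), and for SS+NAC against control edgeR called none of the 18, with 2 at an unadjusted p under 0.05 and 1 called by DESeq2.

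The chemokines outside the 10 were mostly at low levels. Of 31 listed, 19 were measured and 8 tested. The median for SS against control was 0.43, and 0.173 with the length offset, and 2 genes rose in SS. These were CCL5, a T cell and monocyte attractant (0.57, SE 0.137, edgeR adjusted p = 0.00761), and CCL22 (1.19, SE 0.391, edgeR adjusted p = 0.0334), neither of them called with the length offset. The log2 fold change of CCL5 was then 0.21, while that of CCL22 was as large as without it (1.2, edgeR adjusted p = 0.0869). The call of CCL5 was also lost without SS replicate 1, and that of CCL22 without SS replicate 2 or either control library. CXCL5, another neutrophil attractant and the most abundant of the list, had 67.0 and 51.9 CPM in control, 77.1 and 54.3 in SS, and 87.1 and 138 in SS+NAC. It was lower in SS than in SS+NAC (-0.78, SE 0.210, edgeR adjusted p = 0.0131), a call that was lost without SS replicate 2 and in DESeq2's Wald test, and its log2 fold change for SS+NAC against control was 0.92 (SE 0.212, edgeR adjusted p = 0.0578). EdgeR and DESeq2 called none of the 8 for SS+NAC against control, where the median was 0.79. An unadjusted edgeR p under 0.05 was found for 4, without a share of all genes beside it.

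Of 31 other cytokine genes tested, 8 rose and 1 fell for SS against control, with a median of 0.27, and 1 rose and 1 fell with the length offset. TNFSF9, the ligand of 4-1BB, rose from 10.8 and 9.45 CPM to 18.4 and 17.8 (0.84, SE 0.108, edgeR adjusted p = 0.000379) and was called with the length offset too. MIF, a constitutive cytokine and the most abundant of the list, had 428 and 441 CPM in control and 591 and 742 in SS, but its log2 fold change of 0.62 became 0.04 with the offset. CSF3, the granulocyte growth factor G-CSF, had 8.23 and 6.02 CPM in control, 17.3 and 10.2 in SS, and 11.5 and 20.0 in SS+NAC. Its rise in SS (0.96, SE 0.302, edgeR adjusted p = 0.0269) was not called without SS replicate 1 or control replicate 2, or with the offset (0.69). IL34, a ligand of the CSF1 receptor, fell (-1.29, SE 0.318, edgeR adjusted p = 0.00891), a call lost without SS replicate 2 or control replicate 2. For SS+NAC against control, 2 of 31 rose: the stress cytokine GDF15 (1.37, SE 0.302, edgeR adjusted p = 0.0491) and CSF1, the macrophage growth factor (0.64, SE 0.133, edgeR adjusted p = 0.0371). The call of GDF15 was lost with the length offset, where its log2 fold change was nearly the same (1.35, edgeR adjusted p = 0.0564), in DESeq2's Wald test and without any 1 of control replicate 1, SS+NAC replicate 2 or the SS libraries, and that of CSF1 without either control library. For SS against SS+NAC, 4 were higher and 7 lower, and none and 3 with the offset.

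Genes that process and release IL-1 rose in 8 of 13 cases and fell in 1 for SS against control. The median was 0.30, and 0.112 with the length offset. CASP1, the protease that cleaves pro-IL-1β, had 4.0 and 4.97 CPM in control, 7.06 and 6.99 in SS, and 5.59 and 8.39 in SS+NAC, and it rose in SS by 0.64 (SE 0.206, edgeR adjusted p = 0.0307). S100A13, a carrier of IL-1α, rose by 0.63 (SE 0.0799, edgeR adjusted p = 0.000356). NEK7, a partner of the NLRP3 inflammasome, fell (-0.59, SE 0.108, edgeR adjusted p = 0.00189). With the length offset none of the rises was called (0.32 for CASP1 and 0.09 for S100A13) and the fall of NEK7 was (-0.40), and the call of CASP1 was also lost without control replicate 1 or either SS library. Neither edgeR nor DESeq2 called any of the 13 for SS+NAC against control. An unadjusted edgeR p under 0.05 was found for 5, without a share of all genes beside it.

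The NF-κB list holds subunits, inhibitors and feedback targets. Of 21 genes, 7 rose, 4 fell and 10 were not called for SS against control, beside 18.6% higher and 21.4% lower of all tested genes, with a median of 0.12, and with the length offset 2 rose and 2 fell. NFKBIA, which encodes IκBα and is itself induced by NF-κB, had 69.2 and 64.4 CPM in control, 157 and 115 in SS, and 76.0 and 112 in SS+NAC. It rose in SS by 1.03 (SE 0.177, edgeR adjusted p = 0.00146) and was called with the length offset. RELB, a subunit of the noncanonical pathway, rose by 0.61 (SE 0.133, edgeR adjusted p = 0.00502), whereas REL (-0.87, SE 0.214, edgeR adjusted p = 0.00880), the kinase gene CHUK (-0.51, SE 0.0840, edgeR adjusted p = 0.00119) and the ubiquitin ligase gene BIRC2 (-0.56, SE 0.0827, edgeR adjusted p = 0.000705) fell. The rise of RELB (0.49, edgeR adjusted p = 0.0562) and the fall of REL (-0.42) were not called with the offset, and that of REL not without SS replicate 2. CYLD, which encodes an inhibitor of the pathway, fell as well (-0.43, SE 0.0874, edgeR adjusted p = 0.00330) but was not called with the offset (-0.06), and the feedback targets TNFAIP3 (0.45), NFKBIZ (0.12) and BIRC3 (-0.08) were not called. For SS+NAC against control, 2 of 21 rose, IER3 (0.86, SE 0.147, edgeR adjusted p = 0.0148) and RELB (0.62, SE 0.133, edgeR adjusted p = 0.0430), and none fell. Without control replicate 2 neither of these calls held, and that of RELB was also lost with the length offset, at nearly the same log2 fold change (0.61, edgeR adjusted p = 0.0564), and without control replicate 1 or SS+NAC replicate 2. For SS against SS+NAC, 2 were higher and 7 lower, and none and 3 with the offset.

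The AP-1, C/EBP and ATF list had the largest share of calls against control among the 9 lists. Of 18 genes, 12 rose and 2 fell for SS against control (median 0.55), beside 18.6% and 21.4% of all tested genes. For SS+NAC against control 9 rose and none fell (median 0.50), beside 1.36% and 0.657%. The medians over all tested genes were 0.00 in both comparisons. EGR1, an immediate early gene of growth factor and stress signals, had 10.3 and 9.41 CPM in control, 25.6 and 18.5 in SS, and 97.6 and 104 in SS+NAC. It rose by 1.17 (SE 0.148, edgeR adjusted p = 0.000348) in SS and by 3.36 (SE 0.139, edgeR adjusted p = 3.62e-07) in SS+NAC, and the 3 groups were well apart. FOS, a subunit of AP-1, had 5.11 and 3.75 CPM in control, 10.7 and 8.91 in SS, and 12.5 and 14.8 in SS+NAC, with rises of 1.16 (SE 0.178, edgeR adjusted p = 0.000833) and 1.64 (SE 0.172, edgeR adjusted p = 0.000675).

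ATF3, a stress-induced factor of the ATF family, rose by 1.35 (SE 0.164, edgeR adjusted p = 0.000290) in SS and by 1.61 (SE 0.161, edgeR adjusted p = 0.000461) in SS+NAC. CEBPD, a C/EBP factor of the acute phase response, had 43.4 and 32.2 CPM in control, 145 and 87.7 in SS, and 83.4 and 164 in SS+NAC. CEBPD rose by 1.63 (SE 0.305, edgeR adjusted p = 0.00216) and 1.72 (SE 0.305, edgeR adjusted p = 0.0177), and its replicates leaned as those of CXCL8 did, with SS replicate 1 and SS+NAC replicate 2 the higher. With the length offset, EGR1, FOS, ATF3 and CEBPD were still called in both comparisons against control, and 10 of 18 genes rose and 1 fell in SS, but without control replicate 2 the call of CEBPD in SS+NAC was lost. FOSL1, the most abundant of the list at 906 to 1211 TPM, was not called in any comparison. FOSL2 (-0.57, SE 0.0705, edgeR adjusted p = 0.000325) and ATF2 (-0.54, SE 0.0850, edgeR adjusted p = 0.000897) fell in SS, and with the offset the fall of ATF2 was called (-0.34) and that of FOSL2 was not (-0.19, edgeR adjusted p = 0.0896). For SS against SS+NAC, 3 were higher, led by BATF3 (0.54, SE 0.126, edgeR adjusted p = 0.00624), and 7 lower, led by EGR1 (-2.19, SE 0.125, edgeR adjusted p = 1.16e-05). The call of BATF3 was lost with the offset (0.09, edgeR adjusted p = 0.579) and without SS replicate 2. With the offset 1 gene, JUND, was higher (0.36) and 4 were lower.

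**Figure D4:**
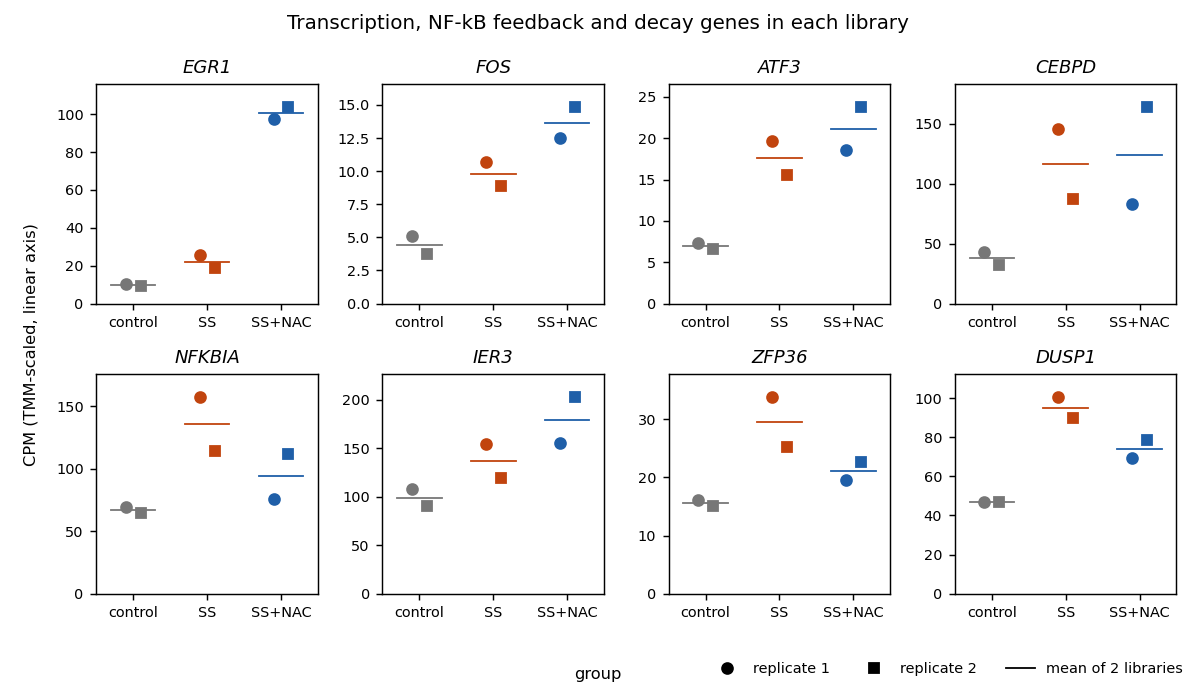
CPM (linear axis from 0) of 8 regulator genes in each library, chosen for the plot after their values were seen; circles are replicate 1, squares replicate 2 and lines the mean of 2 libraries. EGR1 is highest in both SS+NAC libraries (97.6 and 104 CPM), while NFKBIA, ZFP36 and DUSP1 are highest in both SS libraries in CPM. In TPM, SS replicate 2 lies below SS+NAC replicate 2 for NFKBIA (113.8 and 152.4), ZFP36 (22.3 and 27.5) and DUSP1 (68.6 and 82.1). Of all tested genes, 65.2% are lower in SS than in SS+NAC without overlap in TPM.

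The list of AU-rich element decay and the p38-MK2 pathway holds genes that shorten and genes that prolong the life of cytokine transcripts. Of its 20 genes, 5 rose, 6 fell and 9 were not called for SS against control, and these shares were near those of all tested genes (18.6% higher and 21.4% lower). The median was -0.01, and 0.157 with the length offset. DUSP1, a phosphatase that shuts off p38, had 46.6 and 47.0 CPM in control, 100.4 and 89.8 in SS, and 69.5 and 78.5 in SS+NAC. It rose by 1.02 (SE 0.0883, edgeR adjusted p = 9.43e-05) in SS and by 0.66 (SE 0.0885, edgeR adjusted p = 0.00385) in SS+NAC. ZFP36, which encodes the decay factor tristetraprolin, rose in SS by 0.92 (SE 0.141, edgeR adjusted p = 0.000791), and ZC3H12A, the ribonuclease Regnase-1, rose in SS+NAC by 0.86 (SE 0.156, edgeR adjusted p = 0.0210), a call lost without control replicate 2. CNOT1, the scaffold of the deadenylase complex, fell in SS (-0.54, SE 0.0755, edgeR adjusted p = 0.000562), but with the length offset none of the 6 falls was called (-0.04 for CNOT1) and 4 genes rose. For SS+NAC against control, 2 of 20 rose (3 with the offset), and for SS against SS+NAC, 5 were higher and 7 lower (2 and 1 with the offset).

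Secreted and surface genes of inflamed epithelium were last. Of 20 tested, 5 rose and 1 fell for SS against control (median 0.44), beside 18.6% and 21.4% of all tested genes. For SS+NAC against control 6 rose and 1 fell (median 0.86), beside 1.36% and 0.657%. The counts of the list were 2 and 1, and 4 and 2, with the length offset. SAA1, an acute phase protein, had 80.1 and 57.0 CPM in control, 191 and 120 in SS, and 130 and 197 in SS+NAC, and it rose by 1.19 (SE 0.238, edgeR adjusted p = 0.00315) and 1.25 (SE 0.238, edgeR adjusted p = 0.0250). Neither rise was called with the length offset (0.65 and 1.32, edgeR adjusted p = 0.192 and 0.0514), and that in SS+NAC was also lost without control replicate 2. PTGS2, which encodes cyclooxygenase-2, rose by 0.93 (SE 0.248, edgeR adjusted p = 0.0131) and 1.21 (SE 0.241, edgeR adjusted p = 0.0312), and both calls held with the offset but not without SS replicate 1 for the first, or either control library or SS+NAC replicate 2 for the second. The complement gene C3 (0.89, SE 0.152, edgeR adjusted p = 0.0148) and VEGFA (0.67, SE 0.126, edgeR adjusted p = 0.0231) rose in SS+NAC against control, and STC1, a secreted glycoprotein, fell (-0.93, SE 0.148, edgeR adjusted p = 0.0106). The call of C3 was lost without control replicate 2, that of STC1 without control replicate 1 and that of VEGFA without either. The immune checkpoint ligand CD274 fell in SS (-0.56, SE 0.120, edgeR adjusted p = 0.00447), a call lost without control replicate 1. For SS against SS+NAC, 4 were higher and 5 lower (3 and 2 with the offset).

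Over the 9 lists together, 157 genes were tested. For SS against control 51 rose and 22 fell, beside 18.6% and 21.4% of all tested genes. The median log2 fold change was 0.20 (0.13 with the length offset). For SS+NAC against control 21 rose and 1 fell, beside 1.36% and 0.657%, with a median of 0.24. For SS against SS+NAC 24 were higher and 48 lower, beside 19.6% and 23.1%, with a median of -0.11. With the length offset, the calls for SS against control were 20 up and 10 down, those for SS+NAC against control 18 up and 2 down, and those for SS against SS+NAC 7 up and 17 down. Over all 14005 tested genes, the offset left 1292, 282 and 2019 calls in these comparisons. Of all genes, 4.19% were higher in the first, 1.35% higher in the second and 7.39% lower in the third. The shares in the opposite directions are not given here, so nothing is read from the list counts in those directions.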

How the data were processed

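RNA of KHM-5M cells was sequenced by the authors in single-end reads of 50 bases, filtered with SOAPnuke, mapped with HISAT2 2.0.4 and quantified with RSEM 1.2.12; the submitters' processing notes also list Bowtie2 2.2.5. RSEM gave the authors the expected counts in the deposited table. The TPM and FPKM values in the deposited table were made by the authors with RSEM from these counts and effective lengths; FPKM was used only to derive those lengths. The log2 fold changes, p-values and q-values of the authors' 3 comparisons stand in the deposited table and were left unused, as were its 9 columns of group means. The strands in the table were not used either, and gene positions came from GENCODE release 29.

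The counts, 44.8% of which were not whole within 1e-06, were rounded. Genes passing filterByExpr of edgeR 4.0.16 (R 4.3.3) were scaled with TMM, and the 6 libraries were fitted together, with quasi-likelihood tests and Benjamini-Hochberg adjustment; DESeq2 1.42.0 was an alternative. All 10 chosen genes passed the filter. The length offset was a lowess fit (span 0.3) of each library's deviations in log2 CPM on log length. Standard errors were derived from the F statistic. A count of 3, the limit that 0 allows for counting error only, was between 0.124 and 0.167 CPM. The fit was also run on simulated data, from which no result is given here.

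The 10 genes and the 9 lists were chosen with earlier results of these data known. Receptors were all named; in the other lists, a called gene was eligible if a group's mean reached 1 CPM, up to the 3 with the largest and the 3 with the smallest fold change in a comparison, with the most abundant gene, and the text gives some of these. Python 3.11.15, pandas 2.3.3 and matplotlib 3.10.9 served for tables and plots.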

Additional observations from a re-analysis of the deposited data

How the results depend on the processing

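The counts of calls are given for SS against control, SS against SS+NAC and SS+NAC against control, in this order. All tested genes gave 5609, 5985 and 282 calls, the 10 genes 7, 5 and 6, and the related lists 73, 72 and 22. With the length offset there were 1292 and 2019 calls in the first 2 comparisons, 0 of the 10 genes in the first, and 30 and 24 list genes in the first 2. Bonferroni adjustment gave 220, 191 and 40 calls over all genes, 0, 0 and 0 of the 10 genes, and 1, 1 and 5 list genes. DESeq2's Wald test gave 4727, 4972 and 321 calls over all genes, 2, 2 and 5 of the 10 genes, and 63, 56 and 26 list genes. Leaving out 1 library at a time gave 3118 to 6579, 3250 to 6339 and 98 to 1086 calls over all genes, 2 to 8, 1 to 7 and 3 to 8 of the 10 genes, and 50 to 89, 28 to 82 and 10 to 49 list genes; a group left with 1 library is assumed to vary like the others. DESeq2's size factors, other filters on low counts and fits of 2 groups alone kept each of these counts within 1.5 times.

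With the replicate number as a replicate block, 4857, 5136 and 211 genes, 7, 5 and 7 of the 10 genes and 64, 64 and 24 list genes were called. Deviations of same-numbered libraries correlated at 0.113 for control and SS, -0.105 for control and SS+NAC and -0.175 for SS and SS+NAC. The signs differ, so the replicate number gives no pairing common to all groups. The labels do not say whether libraries were paired in another order. A block with the SS+NAC numbers crossed, added after seeing the data, gave 7151, 7286 and 1475 calls over all genes, 8, 7 and 9 of the 10 genes and 99, 86 and 58 list genes.

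Fold changes of the 10 genes moved by less than the spread between replicates in 410 of 417 values, and none that was called changed sign. Many of these values leave out 1 library, which can hardly move a mean of 2 by more than their spread. The count therefore says little about stability. CXCL8 for SS against SS+NAC, which went from -1.31 to -0.315 without SS+NAC replicate 2, is among the 410. The 7 others were 5 with TPM means (an alternative added after seeing the data) for IL11, LIF and CCL20, 1 with the length offset and 1 without SS+NAC replicate 2, both for CCL20. With the length offset 13 called fold changes of list genes turned round: for SS against SS+NAC CNOT1 (0.061), CYLD (0.019), FOSL2 (0.028), IL18 (-0.035), IL32 (-0.075), JAK1 (0.014), N4BP1 (0.072), PLAUR (-0.016), PYCARD (-0.061) and STAT5B (0.042), and for SS against control JAK1 (0.035), N4BP1 (0.069) and NFKBIB (-0.013). The cause of these changes was not tested. Groups of 2 libraries and the low counts of CCL20 limit the precision.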
